A study of Mus musculus with 4 samples.

Results

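Of the 82325 accessible regions (sites) measured in immortalized mouse embryonic fibroblasts (MEFs), 90 lay at 10 genes that control entry into S phase through the retinoblastoma (Rb) proteins. A site was taken for a gene when it overlapped the gene body or lay within 50 kb of the start of any of its annotated transcripts. No measured level entered that rule. The windows held 8 sites for Cdkn2a, 10 for Cdkn2b, 8 for Cdkn2c, 11 for Cdkn1b, 8 for Rb1, 3 for Rbl1, 5 for Rbl2, 14 for Ccnd1, 10 for Cdk4 and 19 for Cdk6. Cdkn2a and Cdkn2b are neighbours on chromosome 4 and shared 6 of these sites.

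Accessibility was read out by ATAC-Seq, an assay that uses the Tn5 transposase to insert sequencing adapters where chromatin is open. There were 4 libraries, with 2 from HAT1+/+ lines (WT) and 2 from HAT1−/− lines (KO), all on a C57bl6 background. HAT1 is the acetyltransferase that modifies new histone H4 before it is assembled into chromatin. Every line was made from embryonic fibroblasts by transfecting a plasmid that carries the SV40 T antigen, so WT and KO lines alike carried the viral protein, and each library came from a separate line. Per the study's methods, the embryos were taken at mid-gestation and the transfected cells were then passaged several times. Whether a line is 1 clone is not given in the sources used here, and the design holds no line without T antigen.

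The members form 1 pathway. D-type cyclins such as Ccnd1 bind Cdk4 and Cdk6, and the active kinases phosphorylate Rb1 and its relatives Rbl1 (p107) and Rbl2 (p130), which then release E2F transcription factors. The INK4 proteins encoded by Cdkn2a (p16), Cdkn2b (p15) and Cdkn2c (p18) inhibit those kinases, Cdkn1b (p27) inhibits cyclin-dependent kinases more widely, and a second first exon of Cdkn2a makes p19Arf, which stabilizes p53. Large T antigen binds Rb family proteins and p53, and cultured MEFs are known to silence, delete or bypass Cdkn2a or p53 as they become immortal, which makes these loci a point of interest in such lines.

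Values are normalized counts per site, and fold changes are KO over WT on the log2(value + 1) scale, which understates changes of weak sites. Libraries held about 5650000 to 11400000 reads in sites, an estimate from the spacing of low values, and both KO libraries were shallower than both WT libraries. Library medians were 51 to 53 normalized counts. The strongest promoter sites of 13 fibroblast marker genes summed to 3659 and 4016 in WT and 4119 and 4205 in KO, and those of 11 marker genes of other cell types to 734 and 601 in WT and 608 and 604 in KO. Of those lists, Lum among fibroblast genes and Ptprc, Spi1, Krt18, Sox10 and Myod1 among the others had no promoter site. The median values per gene were 243 and 55.5, but single genes overlapped between the lists. The fibroblast gene Dcn had 18 and 25 in WT and 9 and 30 in KO. The endothelial gene Kdr had 155 and 109 in WT and 116 and 113 in KO, and both genes were named after their values were seen. Within the fibroblast sum Vim, named after its values were seen, had 759 and 810 in WT and 977 and 919 in KO. Without it the sums of the other 12 genes were 2900 and 3206 in WT and 3142 and 3286 in KO, which overlap, and the part of these cell markers in the results was not tested. With 2 libraries per genotype, an exact permutation test of a single value cannot reach a p below 0.333, so sites were tested with limma over the whole table. Nothing given with the libraries says that the lines within a genotype were independent beyond being separate lines.

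Promoter sequences show the ground on which the values were measured. RefSeq listed 10 promoters of 300 bases (GRCm38.p6, from 250 bases before to 50 after a start) for 8 of the genes, and each of the 10 lay wholly inside a site. Promoters of Rb1 and Ccnd1 were not used here. The E2F letters TTCCCGC or TTGGCGC, searched on both strands, were present in 2 of the 10, against 6.81% of all 32851 RefSeq mouse promoters. Those 2 were the Arf promoter of Cdkn2a and the upstream promoter of Cdkn2c. For Rb1 and Ccnd1, the central 300 bases of the strongest promoter site held 2 and 1 E2F matches. Such letters were in the central 300 bases of 7.96% of all sites within 3 kb of a start. The GC box GGGCGG was found in 8 of the 10, against 35.7% of all promoters, and the E box CACGTG in 3 of the 10, against 7.15%. The AP-1 letters TGANTCA were in 0 of the 10, against 7.81%. A match is a match of letters only, and its absence says nothing of a factor. The 4 promoters shown are both starts of Cdkn2a, which contrast in E2F letters and GC content, Cdkn2c, and Cdk4, with capitals for E2F and E box letters.
Cdkn2a, Arf start, chr4:89294570-89294869, minus strand: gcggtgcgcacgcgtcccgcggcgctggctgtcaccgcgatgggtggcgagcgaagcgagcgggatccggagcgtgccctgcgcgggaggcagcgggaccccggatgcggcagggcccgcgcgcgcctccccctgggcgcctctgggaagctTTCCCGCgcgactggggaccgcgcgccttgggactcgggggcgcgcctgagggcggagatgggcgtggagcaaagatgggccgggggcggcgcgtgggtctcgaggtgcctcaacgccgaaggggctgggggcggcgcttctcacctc
Cdkn2a, Ink4a start, chr4:89282143-89282442, minus strand: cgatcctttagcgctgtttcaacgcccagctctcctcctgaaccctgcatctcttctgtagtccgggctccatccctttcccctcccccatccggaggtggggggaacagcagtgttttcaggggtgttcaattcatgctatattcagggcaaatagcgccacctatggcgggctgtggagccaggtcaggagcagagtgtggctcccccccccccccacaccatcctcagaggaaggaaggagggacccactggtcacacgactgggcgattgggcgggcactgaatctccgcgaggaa
Cdkn2c, upstream start, chr4:109666707-109667006, minus strand: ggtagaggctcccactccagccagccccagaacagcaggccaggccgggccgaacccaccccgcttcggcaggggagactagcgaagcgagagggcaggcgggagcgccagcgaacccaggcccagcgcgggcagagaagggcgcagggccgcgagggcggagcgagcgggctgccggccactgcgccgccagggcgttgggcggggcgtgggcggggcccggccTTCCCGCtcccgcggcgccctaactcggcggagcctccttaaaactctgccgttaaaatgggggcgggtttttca
Cdk4, chr10:127063285-127063584, plus strand: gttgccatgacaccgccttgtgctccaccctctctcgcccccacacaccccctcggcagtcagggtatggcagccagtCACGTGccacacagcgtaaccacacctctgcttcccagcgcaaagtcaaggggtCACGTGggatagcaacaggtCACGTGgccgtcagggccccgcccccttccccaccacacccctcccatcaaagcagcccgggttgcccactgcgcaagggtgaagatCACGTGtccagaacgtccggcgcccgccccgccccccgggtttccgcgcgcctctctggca
The Arf promoter was 77.0% G and C with 1 E2F match, whereas the Ink4a promoter was 60.3% with none. Cdk4 held 4 E box matches, the most of the 10.

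Across all 90 sites, accessibility differed little between the genotypes. The median log2 fold change was 0.04, against 0.0062 over all 82325 sites. The absolute log2 fold change was under 0.5 at 75 sites (83.3%, against 76.3% of all sites) and at least 1 at 3 (3.33%, against 6.42%). At 73 of the 90 sites (81.1%, against 81.1% of all sites) the 2 lines of at least 1 genotype differed by more than the genotype means did. The larger of 2 differences between single lines is set there against a difference of means. A high share is therefore usual and does not measure the absence of a genotype difference. Both KO libraries lay above both WT libraries at 17 sites, where the share over all sites was 14.6%, and below them at 13 sites, where it was 14.3%. A site was called when its unadjusted limma p was under 0.01 and KO and WT differed by at least 1 on the log2 scale, a rule that called 0.0705% of all sites higher and 0.302% lower in KO. Of the 90, 1 was called higher and 0 lower, and that 1 site, upstream of Cdkn1b, was also the only 1 with a p under 0.05, where the share over all sites was 3.13%. The lowest Benjamini-Hochberg adjusted limma p was 1, over the 90 as over all sites. No library was at 0 at any of the 90.

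**Figure D1:**
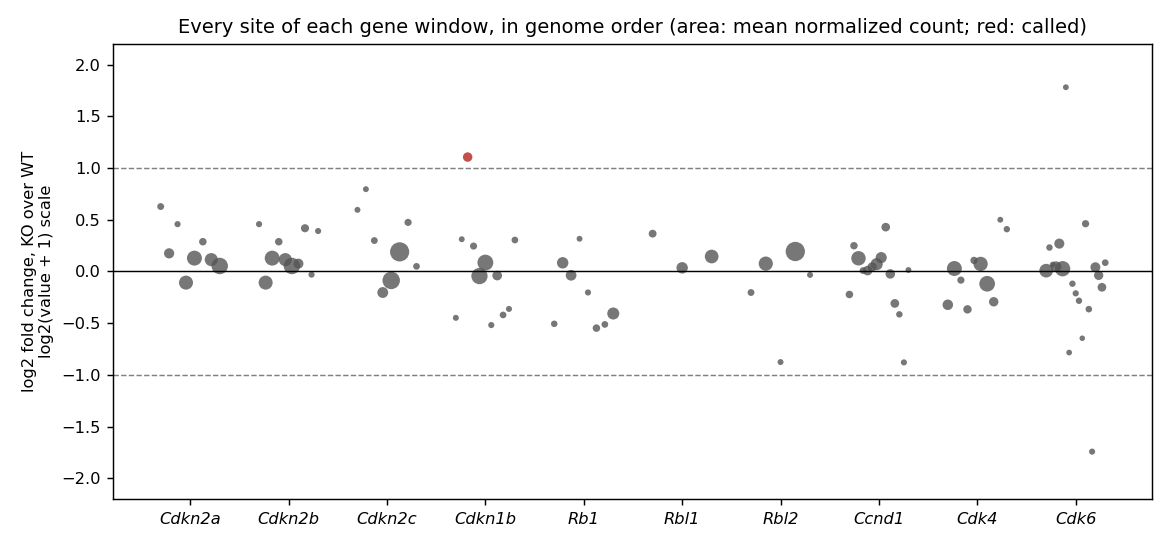
Log2 fold change (KO over WT, vertical axis) of every site in the window of each gene, in genome order within a gene, with point area following the mean normalized count and dashed lines at the fold threshold of 1. Sites shared by Cdkn2a and Cdkn2b are drawn under both; the Cdkn1b site called higher (1.11) is red, and the points beyond the lines at Cdk6 (1.78 and −1.74) are weak sites that were not called.

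The INK4 inhibitors were examined first. At the Arf start of Cdkn2a (chr4:89294262-89295197, mm10), the promoter site held 352 and 342 normalized counts in WT and 374 and 385 in KO. Both KO values exceeded both WT values, by a log2 fold change of 0.13 (SE 0.13, 95% interval −0.19 to 0.45). The Ink4a start (chr4:89281964-89283063), which serves p16, had 324 and 324 in WT and 337 and 268 in KO, a log2 fold change of −0.11 (95% interval −0.52 to 0.31). There the 2 KO lines lay on either side of the WT lines. Both starts of Cdkn2a were thus covered by sites with signal in every line, and their 4-library means lay at the 95.1 and 93.2 percentile over all sites. These sites were 936 and 1100 bp long, against a median of 440 bp over all sites. Their means were 363 and 313, and the strongest promoter sites of 28 other genes of the Rb pathway had a median of 365.

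The rest of the locus was similar. The Cdkn2b promoter (chr4:89310363-89311321) had 398 and 487 in WT and 472 and 442 in KO, with a log2 fold change of 0.05 (95% interval −0.29 to 0.40). The WT lines spanned both KO lines. An intergenic site between the 2 genes (chr4:89301999-89302659), 7346 bp before the Arf start and the strongest site of either window away from any start, had 250 and 265 in WT and 266 and 292 in KO. Its KO values were both the higher, with a log2 fold change of 0.11 (95% interval −0.28 to 0.51). A weaker site in front of Arf (chr4:89295394-89295709) had 52 and 48 against 52 and 72, and 1 further upstream of Cdkn2b (chr4:89351473-89351855) had 57 and 66 against 67 and 101. These 2 had log2 fold changes of 0.29 and 0.42, among the 5 largest above 0 at sites with at least the median signal, and neither was called.

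In direction, 7 of the 8 Cdkn2a sites and 8 of the 10 Cdkn2b sites had the higher mean in KO, with 6 sites common to both counts. The region showed the same tilt: over the 162 sites within 2.5 Mb of the Arf start the median log2 fold change was 0.13, and WT replicate 1 stood 0.16 below the 4-library mean there while the other 3 libraries stood 0.02 to 0.10 above it. The sums over the windows were 1555 and 1655 in WT and 1787 and 1628 in KO for Cdkn2a, and 1649 and 1702 in WT and 1779 and 1769 in KO for Cdkn2b. The differences between genotypes were small, with log2 fold changes of 0.09 (SE 0.10) and 0.08 (SE 0.09). Both signs were negative after quantile normalization, at −0.0053 and −0.0147.

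**Figure D2:**
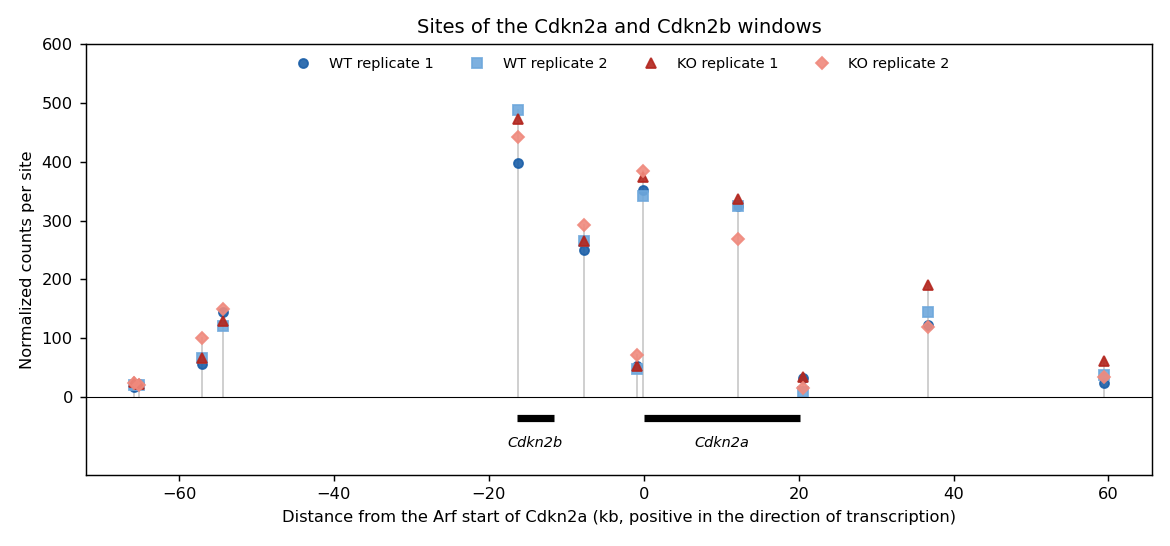
Normalized counts (vertical axis) of each of the 12 sites of the Cdkn2a and Cdkn2b windows against distance of the site centre from the Arf start in kb, with 1 point per library and bars for the gene bodies. At the Arf start both KO points (374 and 385) lie above both WT points (352 and 342), while the genotypes overlap at the Ink4a start (268 to 337) and at the Cdkn2b promoter (398 to 487).

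Cdkn2c, on the same chromosome but in another region, had a promoter site 2119 bp long (chr4:109665168-109667286) that spanned both of its starts. It had 564 and 497 in WT and 476 and 522 in KO. The groups overlapped, and the log2 fold change was −0.09 (95% interval −0.38 to 0.21). Away from starts, its strongest site lay in an intron of Faf1, centred at −36.8 kb from the start of Cdkn2c (chr4:109703653-109704236), with 36 and 41 in WT and 49 and 59 in KO. Both KO values were higher, by 0.47 on the log2 scale, within an interval of −0.36 to 1.31. The highest signal in the window belonged to the start of Faf1 itself (chr4:109676038-109677325), with 552 and 626 in WT and 663 and 678 in KO. Over its 8 sites the median log2 fold change was 0.24, and 4 had both KO libraries above both WT libraries, an order that 14.6% of all sites had.

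Cdkn1b held the called site. Its promoter (chr6:134919899-134920896) had 462 and 427 in WT and 467 and 397 in KO, with a log2 fold change of −0.04 (95% interval −0.37 to 0.29), and did not separate the genotypes. In contrast, an intergenic site centred at −16.2 kb from the gene start (chr6:134903813-134904543, 731 bp) had 85 and 64 in WT and 156 and 164 in KO. Both KO lines held about as much signal as each other and more than either WT line. The log2 fold change was 1.11 (SE 0.28, 95% interval 0.43 to 1.78), which met the call rule with a Benjamini-Hochberg adjusted limma p of 1. The nearest annotated start was that of Gpr19, 5235 bp away, so the site cannot be tied to Cdkn1b by position alone. In approximate reads, the values stood for 100 and 90 in WT and 145 and 109 in KO.

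The call rested on few libraries. With any 1 library left out, the log2 fold change stayed between 0.90 and 1.31, and the site was called in 0 of the 4 fits. Without the intensity trend in limma the p was above 0.01, which also ended the call. The mean log2 fold change over the 25 sites centred on it was 0.05, so its neighbours did not share the difference. Next to it, a site centred at −14.4 kb (chr6:134905834-134906153) had 40 and 41 in WT and 43 and 54 in KO.

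The central 300 bases of the called site held 1 match to the AP-1 letters TGANTCA, in capitals, and none to the E2F, GC box or E box letters.
Cdkn1b upstream site, chr6:134904029-134904328, plus strand: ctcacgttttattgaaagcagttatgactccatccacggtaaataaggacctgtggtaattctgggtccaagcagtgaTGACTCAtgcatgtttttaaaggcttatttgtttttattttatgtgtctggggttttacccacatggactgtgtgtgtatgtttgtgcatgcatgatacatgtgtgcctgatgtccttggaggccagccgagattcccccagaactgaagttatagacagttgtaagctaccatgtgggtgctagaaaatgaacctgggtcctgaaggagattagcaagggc
AP-1 letters were no mark of this site, since they occurred in 37.7% of all sites and in 31.1% of the 90, each searched over the 300 bases around its centre. Outside promoters the shares were 46.0% of all sites and 46.2% of the 52 sites of these genes.

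**Figure D3:**
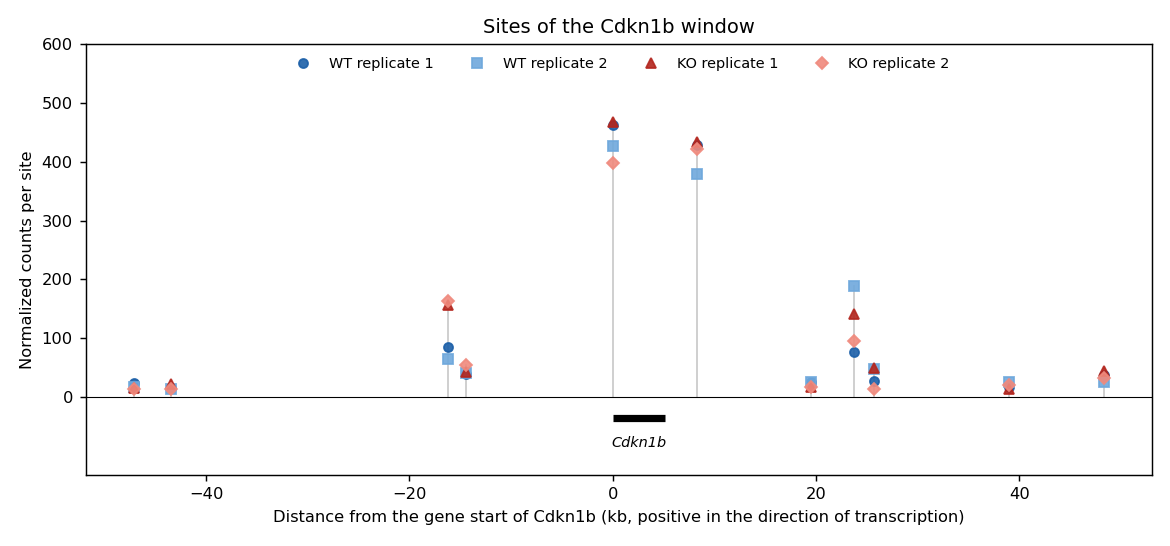
Normalized counts (vertical axis) of the 11 sites of the Cdkn1b window against distance of the site centre from the gene start in kb, with 1 point per library and a bar for the gene body. At −16.2 kb both KO points (156 and 164) lie above both WT points (85 and 64), while at the promoter the 4 libraries overlap between 397 and 467.

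A strong site downstream of Cdkn1b showed how far lines of 1 genotype could differ. At 23.7 kb from the start (chr6:134943701-134944543), the values were 76 and 188 in WT and 141 and 96 in KO. The WT lines enclosed both KO lines, and the log2 fold change of −0.04 had a 95% interval of −1.17 to 1.09. A further strong site at 8.33 kb, nearest to the start of the noncoding gene Lockd, had 428 and 379 in WT and 434 and 421 in KO.

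Among the kinase genes and their cyclin, no site was called, where the rule called 0.0705% of all sites higher and 0.302% lower in KO. The Cdk4 promoter (chr10:127063098-127063963) had 329 and 312 in WT and 339 and 335 in KO. These values differed by 0.07 on the log2 scale (95% interval −0.27 to 0.41). The strongest Cdk6 promoter site (chr5:3343503-3344713) had 404 and 357 in WT and 411 and 364 in KO, and within each genotype the lines differed more than the genotypes did. Its log2 fold change was 0.03 (95% interval −0.32 to 0.37).

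Cdk6 also held the 2 largest fold changes of the 90 sites, both in introns and both at low signal. The first (chr5:3355775-3355994), 14.4 kb from the start, had 4 and 8 in WT and 18 and 27 in KO. The KO lines were both the higher, with a log2 fold change of 1.78 (SE 0.75), but the values stood for only about 5 and 11 reads in WT and 17 and 18 in KO. The second (chr5:3451365-3451625), 110.0 kb from the start, had 39 and 20 in WT and 2 and 24 in KO. It was low in 1 KO line only, and its log2 fold change of −1.74 had an SE of 1.07. These 2 sites were named after their values had been seen. In the strongest Cdk6 site away from a start (chr5:3300867-3301939), centred at −40.1 kb from the start, the values were 279 and 311 in WT and 326 and 269 in KO.

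Ccnd1 was covered by 3 sites near its starts and a series of sites upstream. The strongest, centred at −1.64 kb from the gene start (chr7:144941237-144941902), had 207 and 230 in WT and 242 and 217 in KO. The groups overlapped, with a log2 fold change of 0.07 (95% interval −0.38 to 0.52). The other 2 sites near starts had 100 and 112 in WT and 124 and 96 in KO (chr7:144939599-144939901), and 118 and 122 in WT and 104 and 140 in KO (chr7:144937520-144937912). An upstream site at −3.57 kb (chr7:144943247-144943744) had 173 and 172 in WT and 197 and 182 in KO, higher in both KO lines by 0.13 on the log2 scale (95% interval −0.35 to 0.62). The highest log2 fold change at Ccnd1 was at −6.09 kb (chr7:144945823-144946208), with 69 and 83 against 87 and 120, and the lowest among its sites with at least the median signal was at −31.4 kb (chr7:144970887-144971723), with 78 and 129 against 87 and 75. Neither was called, and their log2 fold changes were 0.43 and −0.31.

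Around Cdk4 the stronger sites with lower means in KO sat at neighbouring genes. The site at the Tsfm start (chr10:127030130-127030998) had 188 and 158 in WT and 148 and 128 in KO, and 1 near March9 (chr10:127058212-127058623) had 105 and 82 in WT and 66 and 78 in KO. Both KO lines were below both WT lines at each. Their log2 fold changes were −0.32 (95% interval −0.89 to 0.24) and −0.37 (95% interval −1.10 to 0.37). An exonic site of Agap2, 27.9 kb downstream (chr10:127090996-127091930), had 136 and 117 in WT and 91 and 116 in KO, a log2 fold change of −0.29.

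Of the Rb family, Rb1 was the gene whose promoter was lower in both KO lines. Its promoter (chr14:73325284-73326421) had 293 and 208 normalized counts in WT and 189 and 183 in KO. Both KO lines were below both WT lines, but the WT lines differed from each other by more than the genotypes did. The log2 fold change was −0.41 (SE 0.23, 95% interval −0.96 to 0.15, limma adjusted p = 1), the most negative of the 11 promoter sites. It was −0.16 without WT replicate 1, −0.65 without WT replicate 2 and −0.22 with the sites centred on their chromosome. The strongest site in an intron away from any start (chr14:73293495-73294078) had 49 and 86 in WT and 36 and 54 in KO, a log2 fold change of −0.55 (95% interval −1.57 to 0.47) with overlapping groups. Stronger sites in the gene body, near the start of Lpar6, differed little. One (chr14:73234462-73235239) had 221 and 154 in WT and 173 and 221 in KO. Another (chr14:73237771-73238270) had 191 and 142 in WT and 160 and 161 in KO. Their log2 fold changes were 0.08 and −0.04. Of the 8 sites of the window, 2 had the higher mean in KO.

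The surrounding chromosome moved with Rb1. Over the 3096 sites of chromosome 14, WT replicate 1 stood 0.28 above the 4-library mean on the log2 scale, while the other libraries were at −0.10 to −0.08. Within 2.5 Mb of the Rb1 start, over 149 sites, WT replicate 1 was at 0.34 and KO replicate 2 at −0.35, with the other 2 libraries at −0.0036 and 0.01. The Rb1 window summed to 891 and 675 in WT and 688 and 675 in KO. In these sums WT replicate 1 was above the other libraries, and the log2 fold change of the window, −0.19 (SE 0.16, limma adjusted p = 0.903), was 0.01 without it. With the gene windows centred on their chromosome, the log2 fold change of the Rb1 window was −0.02. DNA copy number of the lines was not measured here, and its part in these values was not tested.

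**Figure D4:**
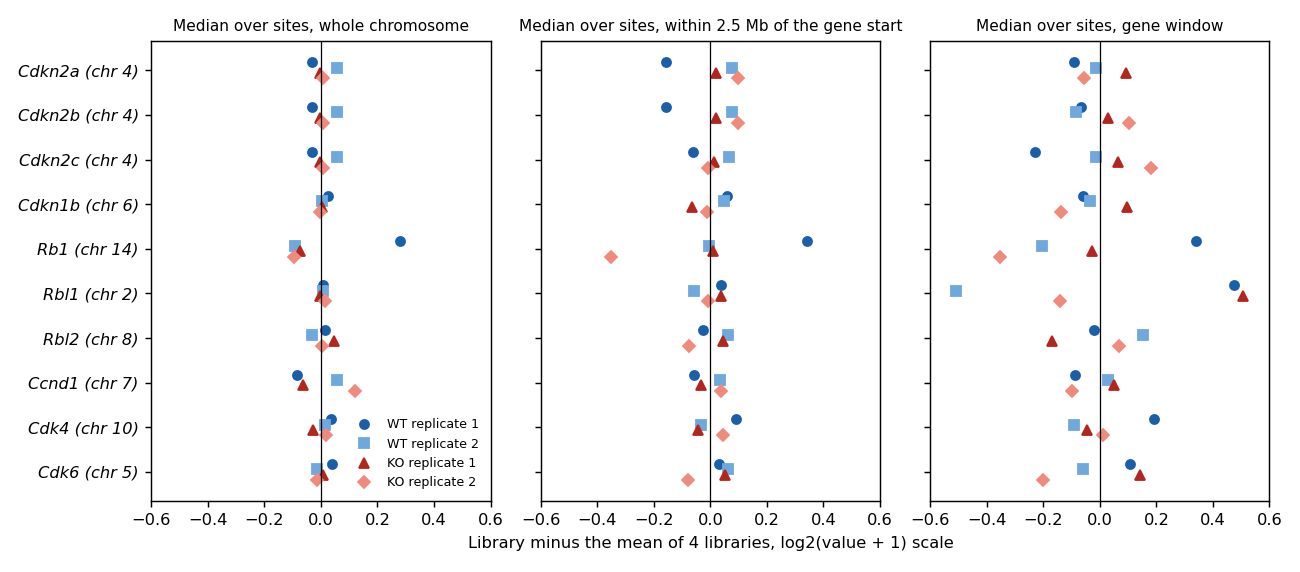
Median over sites of each library's deviation from the 4-library mean (horizontal axis, log2(value + 1) scale) for the chromosome, the sites within 2.5 Mb of the gene start and the window of each gene. At Rb1, WT replicate 1 is the highest at all 3 scales (0.28, 0.34 and 0.34), and KO replicate 2 is as far below the mean (−0.35) within 2.5 Mb and in the window; for the other genes the deviations over the chromosome stay between −0.08 and 0.12.

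At the p107 and p130 genes the promoter means were slightly higher in KO, and that of Rbl2 turned to the other sign after quantile normalization. The Rbl1 promoter (chr2:157203743-157205130) had 305 and 260 in WT and 277 and 350 in KO, with a log2 fold change of 0.14 (95% interval −0.31 to 0.60). Its 2 other sites, both in the gene body and the second 1281 bp from the start of Gm14277, split the lines but not the genotypes. One (chr2:157164076-157164579) had 94 and 29 in WT and 85 and 54 in KO, and the other (chr2:157170101-157170780) had 246 and 124 in WT and 291 and 110 in KO. In both, replicate 1 of each genotype was high and replicate 2 low. These numbers are names only and pair no lines. The Rbl2 promoter (chr8:91069790-91070948) had 317 and 309 in WT and 323 and 337 in KO, a log2 fold change of 0.08 (95% interval −0.27 to 0.42), with both KO lines above both WT lines. An intronic Chd9 site centred at −50.1 kb from the Rbl2 start (chr8:91019722-91020135) had 40 and 43 in WT and 33 and 39 in KO. The strongest site of the Rbl2 window was at the start of Aktip (chr8:91133723-91134560), with 565 and 622 in WT and 626 and 734 in KO, and there too both KO lines were above both WT lines.

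Taking the promoters as a group, all 11 sites (2 for Cdkn2a, 1 for each other gene) held signal in every line, with 183 to 564 normalized counts in any library. Their means lay at the 87.3 to 98.3 percentile over all sites, most of which are not promoter sites. The median of these means was 329, against 365 for the strongest promoter sites of 28 other genes of the Rb pathway. None was called, and 0.257% of the strongest promoter sites of all protein-coding genes were. In 9 of the 11 (81.8%, against 79.4% of all sites within 3 kb of a start), the lines of at least 1 genotype differed by more than the genotype means did. Per kb of site, the mean signal was lowest for Rb1 (192 normalized counts per kb), Rbl1 (215) and Cdkn2c (243), and highest for the Arf start of Cdkn2a (388), Cdkn1b (439) and Cdkn2b (469). That order describes these sites, whose edges were set by peak calling, and neighbours in it were not tested.

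**Figure D5:**
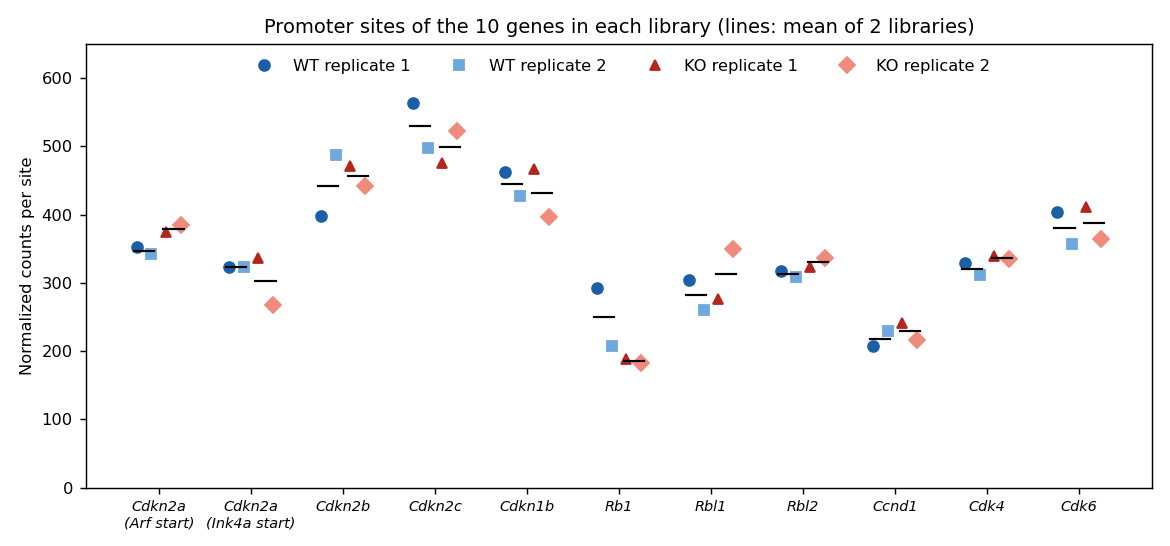
Normalized counts (vertical axis, from 0) of the 11 promoter sites in each of the 4 libraries, with short lines for the mean of the 2 libraries of a genotype. WT and KO means lie close together at every gene, and the largest gap is at Rb1 (250.5 against 186.0), where WT replicate 1 (293) is apart.

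Summed per gene over the whole window, none of the 10 genes was called, against 0.308% of 18861 protein-coding genes. None had a limma p under 0.05, which 4.18% of those genes had. The lowest adjusted p was that of Rb1 (0.903), and 8 of the 10 windows had the higher mean in KO, where the median over all gene windows was itself 0.06. Window log2 fold changes ran from −0.19 at Rb1 to 0.17 (SE 0.25) at Rbl1, whose sums of 645 and 413 in WT and 653 and 514 in KO differed more between lines than between genotypes. The window of Cdkn2a, over the 4 libraries' deviations from their mean, was nearest to those of Slc9a8, Zbtb42 and Panx2 among 17702 genes on other chromosomes, with Euclidean distances of 0.0107, 0.0107 and 0.0143 on the log2 scale. Within a distance of 0.1 lay 731 of those genes.

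Genes that act around the Rb proteins were compared at their strongest promoter sites. Of 29 further genes of the pathway (E2F and DP factors, cyclins, kinases and their inhibitors, DREAM and Polycomb components and regulators of these), 28 had a promoter site, and Cdkn2d had none. None was called. Of the 28, 2 had a p under 0.05 with higher values in KO, against 2.69% of all protein-coding genes, and 0 with lower values, against 1.54%. These were Lin37 and Lin52, subunits of the DREAM and MuvB complex that represses cell cycle genes with p107 and p130. Lin37 had 585 and 642 in WT and 708 and 797 in KO, and Lin52 had 625 and 670 in WT and 766 and 790 in KO. Both KO lines were the higher at each, with log2 fold changes of 0.29 (SE 0.10) and 0.27 (SE 0.09) and adjusted limma p of 1. After scaling the libraries to equal totals, 0 of the 28 had a p under 0.05.

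Targets of E2F were compared in the same way, and all 20 had a promoter site. Of these, 0 were called, against 0.257% of all protein-coding genes. A limma p under 0.05 was reached by 0, against 2.69% of all protein-coding genes with higher and 1.54% with lower values in KO. Counts of 0 among 20 are near those shares. Cdt1, which licenses replication origins, had the lowest p of the 20, with 742 and 748 in WT and 816 and 856 in KO (log2 fold change 0.17, SE 0.08). Hells, a chromatin remodeller, had 203 and 198 in WT and 300 and 208 in KO, and Fen1, a replication nuclease, had 371 and 357 in WT and 522 and 393 in KO. In both, KO replicate 1 was above the other 3 libraries, which lay within 198 to 208 for Hells and 357 to 393 for Fen1. Hells and Fen1 had the highest log2 fold changes of the 20 (0.32 and 0.31) and were named after their values were seen. The lowest was −0.11 at Cdk1, with 415 and 412 in WT and 379 and 385 in KO. Of the 20, 14 had the higher mean in KO, against 51.6% of all sites within 3 kb of a start. The median log2 fold change was 0.10 over the pathway genes and 0.13 over the E2F targets, against 0.03 over all protein-coding genes. All 3 were negative after quantile normalization (−0.05, −0.03 and −0.06). With equal totals they were 0.03, 0.07 and −0.04 in the same order.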

How the data were processed

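ATAC-Seq was analysed for 4 libraries of immortalized MEFs, 2 WT and 2 KO, grouped by the genotype in the labels and numbered in accession order. Per the study's methods and the submitters' processing notes, paired-end reads were aligned by the authors with BWA 0.7.12 against mm10, peaks came from MACS2 2.1.0, and genotypes were compared with DESeq2. The deposited values are a score: read counts per merged site that the authors divided by a factor per library and rounded to whole numbers. Read filtering, peak thresholds, the Tn5 offset and the treatment of reads with several matches are not given in the sources used here, and such an offset spans a few bases, where the median site length was 440 bp. Columns of the authors' own comparison (fold changes, p-values and adjusted p-values) were not used. No value column was left without a sample.

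Scaled values do not suit a count test, so limma 3.58.1 with an intensity trend (R 4.3.3) was fitted to log2(value + 1) of all 82325 sites, with genotype as the only term, no filter, two-sided p-values and Benjamini-Hochberg adjustment over all sites. The call rule, p under 0.01 and a change of at least 1 on the log2 scale in either direction, takes the thresholds that the study gave for its primary MEFs. Intervals are 95% limma intervals. Sites were placed with GENCODE release M21 (GRCm38, the assembly named mm10), and a site within 3 kb of a transcript start was a promoter site. Values were summed over the window of each protein-coding gene and fitted in the same way. The depth came from the regular gaps that scaling leaves in low values and is approximate, since it is unknown whether reads or fragments were counted. The fit was tested on simulated data with planted changes. Sites were drawn independently there, with no shift shared over a chromosome, so that test does not bear on error rates in these lines. Python 3.11.15, numpy 2.4.6 and pandas 2.3.3 were used.

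The genes, lists and tests were chosen with earlier results of these data known. The text names, for each gene, its strongest promoter site (1 for each first exon of Cdkn2a) and its strongest site away from any start, every called site, the 5 largest falls and 5 largest rises among sites whose mean reached the median over all sites, and the 3 genes on other chromosomes nearest to Cdkn2a over the libraries. Other sites and genes were chosen after their values were seen. Alternatives were a pseudocount of 8, equal totals, quantile normalization, centring on the chromosome, a minimum mean of 20, limma without the trend, a window of 10 kb and leaving out each library.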

Additional observations from a re-analysis of the deposited data

How the results depend on the processing

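The count of 1 called site among the 90 was also 1 with a pseudocount of 8, equal totals, quantile normalization, centring on the chromosome and a minimum mean of 20, and fell to 0 without the intensity trend in limma, to 0 with a window of 10 kb (47 sites, which leave out the upstream Cdkn1b site) and to 0 with any 1 library left out. In those last fits, the lone library of a genotype was assumed to vary like the others. The median log2 fold change of the 90 sites ranged from −0.10 to 0.08 with 1 library left out, and was −0.03 with equal totals and −0.01 after quantile normalization. No gene window and no promoter site of the pathway or E2F target lists was called in any setting run on them. Equal totals turned 4 small values negative: the Cdkn2b promoter (−0.0154), the Cdk6 promoter (−0.0420), the Cdk6 window (−0.0409) and the Cdk6 site at −40.1 kb (−0.0606). That scaling moved the median of all sites to −0.06. Quantile normalization turned 11: the windows of Cdkn2a (−0.0053), Cdkn2b (−0.0147), Cdkn2c (−0.0132), Ccnd1 (−0.0165) and Cdk6 (−0.0609), the promoters of Cdkn2b (−0.0914), Cdk4 (−0.0346), Ccnd1 (−0.0140), Cdk6 (−0.0966) and Rbl2 (−0.0313), and the Cdk6 site at −40.1 kb (−0.0868). With 1 library left out, log2 fold changes crossed 0 for the promoters of Ccnd1 (−0.0079 to 0.15), Cdk6 (−0.0627 to 0.115), Cdkn1b (−0.162 to 0.0722), Cdkn2b (−0.0923 to 0.198), Cdkn2c (−0.18 to 0.0043), Rbl1 (−0.0237 to 0.313) and the Ink4a start of Cdkn2a (−0.273 to 0.0566). They also crossed 0 for the windows of Cdk4 (−0.191 to 0.0693), Cdk6 (−0.15 to 0.20), Cdkn1b (−0.00054 to 0.17), Rb1 (−0.386 to 0.0137) and Rbl1 (−0.15 to 0.49), and for the sites at −31.4 kb of Ccnd1 (−0.669 to 0.0499), −40.1 kb of Cdk6 (−0.13 to 0.15), 23.7 kb of Cdkn1b (−0.69 to 0.61) and 40.2 kb of Rbl1 (−0.466 to 1.197). None of these was called in any setting, and the causes were not tested. Among the 28 pathway promoter sites, the count with a p under 0.05 and higher values in KO went from 2 to 0 with equal totals, quantile normalization, no trend or without WT replicate 1, WT replicate 2 or KO replicate 2, and to 5 without KO replicate 1, while 1 site with lower values appeared after quantile normalization. Leaving out either KO library gave 2 such sites among the 20 E2F targets, in place of 0. With 2 lines per genotype and both KO libraries the shallower, differences whose printed interval includes 0 cannot be told from none. The intervals are not adjusted for the number of sites. No paired analysis was possible because fewer than 2 pairs of lines share a number: the names of WT replicate 1 and KO replicate 2 hold the same line number, whose meaning is not given in the sources used here, and the other 2 names share none.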
